A study of Mus musculus with 18 samples.

Results

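The 10 circadian clock genes described here were Per1, Per2, Per3, Dbp, Nr1d1, Nr1d2, Arntl, Npas2, Ciart and Tef. They were chosen by symbol, with earlier results of these data known. They were matched to the Ensembl identifiers of the deposited count table and followed through all 18 libraries. All 10 were found among the 55401 gene identifiers of the table, and all 10 had enough counts to be tested, with between 121 and 8906 counts per gene and library. RNA sequencing of polyadenylated RNA was performed on the BNST (bed nucleus of the stria terminalis), a limbic forebrain structure, and on the prelimbic part of the medial prefrontal cortex (mPFC), to compare acute and persistent pain. Each region was taken from 3 mice 24 h after a hind paw injection of 10 μL of 1% formalin, 3 mice 72 h after 10 μL of 50% complete Freund's adjuvant (CFA), and 3 control mice, which makes 6 groups of 3 libraries. All mice were wild-type C57BL/6 males of 6 to 8 weeks, kept on a light/dark cycle. Control mice had no injection by the methods of the study, although its legends call such mice sham. The agent and the time to collection differed together between the pain models and cannot be told apart. The clock time of collection is not given in the sources used here, so its part in any result on these genes was not tested.

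The mammalian clock is a loop of transcription and repression that runs in nearly every cell, neurons and glia included. ARNTL (also called BMAL1) pairs with CLOCK or its relative NPAS2 and activates genes with E-boxes, among them the Per genes, Nr1d1, Nr1d2, Dbp, Tef and Ciart. The PER proteins, together with the CRY proteins, and CIART (also called CHRONO) repress that activator. NR1D1 and NR1D2 (REV-ERB alpha and beta) repress Arntl and Npas2. DBP and TEF are bZIP factors that activate genes with D-boxes, where NFIL3 represses, and so carry the rhythm to output genes. Transcripts of these genes therefore rise and fall over the day, and Per1 and Per2 also respond to glucocorticoids and to neuronal activity.

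The main pattern was that Dbp fell after CFA in both regions, by 0.94 on the log2 scale in the BNST and by 0.88 in the mPFC, whereas Per2 rose after CFA in the mPFC and had a negative value in the BNST. Per3 and Npas2 fell after CFA in the BNST, and their change there was lower than in the mPFC, although for Per3 this difference between the regions was lost in 12 of 18 fits without 1 library each. None of the 10 genes passed the test against controls after formalin in either region, where 0.3% of all genes tested passed in BNST and 0.269% in mPFC. For Npas2 in BNST, formalin against CFA was not called either (0.14, adjusted p = 0.36). Arntl, Nr1d1, Nr1d2, Per1, Ciart and Tef passed in no treatment comparison within a region.

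The start regions of 4 of these genes are printed, that of Dbp because the gene was called after CFA in both regions, and those of Per3, Per1 and Ciart because they hold motifs through which the loop is known to act. Promoter sequences from RefSeq on build GRCm38.p6 matched 9 of the 10 genes, Per2 being the one without an entry, and each run covers the 250 bases before the annotated start, read 5′ to 3′ along the gene. Capitals mark the motifs searched on both strands. They are Dbp (chr7:45704997-45705246, plus strand), Per3 (chr4:151044666-151044915, minus strand), Per1 (chr11:69098699-69098948, plus strand, the first of its 2 start sites) and Ciart (chr3:95882229-95882478, minus strand). The starts are those of RefSeq, and are not always the ends of the GENCODE loci given further on, so that 159 bases of the Dbp window, 250 of the Per1 window, 23 of the Ciart window and 0 of the Per3 window lie inside the locus of their gene.
Dbp: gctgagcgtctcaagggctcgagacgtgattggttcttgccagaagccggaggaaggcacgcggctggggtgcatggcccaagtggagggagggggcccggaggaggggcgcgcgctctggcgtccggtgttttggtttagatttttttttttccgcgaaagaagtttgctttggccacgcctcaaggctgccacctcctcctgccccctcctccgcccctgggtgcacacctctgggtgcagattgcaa
Per3: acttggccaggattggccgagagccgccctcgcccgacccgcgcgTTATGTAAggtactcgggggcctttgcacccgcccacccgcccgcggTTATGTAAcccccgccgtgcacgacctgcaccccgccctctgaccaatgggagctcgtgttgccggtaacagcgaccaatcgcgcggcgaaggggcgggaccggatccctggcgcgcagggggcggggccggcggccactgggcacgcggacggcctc
Per1: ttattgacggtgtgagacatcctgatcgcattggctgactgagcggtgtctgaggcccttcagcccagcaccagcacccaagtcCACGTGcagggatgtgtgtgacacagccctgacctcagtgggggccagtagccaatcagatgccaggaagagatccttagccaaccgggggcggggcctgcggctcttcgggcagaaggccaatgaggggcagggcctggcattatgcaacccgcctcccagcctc
Ciart: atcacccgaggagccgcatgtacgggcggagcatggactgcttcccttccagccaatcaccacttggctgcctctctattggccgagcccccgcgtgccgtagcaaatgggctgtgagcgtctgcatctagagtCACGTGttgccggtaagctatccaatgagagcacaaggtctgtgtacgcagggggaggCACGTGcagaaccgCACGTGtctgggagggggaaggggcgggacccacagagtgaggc

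The Ciart window held the E-box CACGTG 3 times, at -116, -58 and -44 from the start, and the first Per1 window held it once, at -166. Both Tef windows also held it, while 6.02% of the 32817 promoter windows of the same length did. The related letters CACGTT occurred in the Nr1d1 window and in 3.85% of all windows. The Per3 window held the D-box TTATGTAA at -205 and at -158, and 0.817% of all windows held these letters. No searched motif was in the windows of Dbp, Nr1d2, Arntl or Npas2. The other D-box TTACGTAA (0.113% of all windows), the ROR element core TAGGTCA (2.24%), the glucocorticoid receptor element core ACANNNTGT (5.84%) and the CRE TGACGTCA (1.55%) were in none of the windows of the 9 genes. A match describes the letters alone, and no match says nothing of sites outside these 250 bases.

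Levels are CPM, the counts of a gene relative to all counts of its library after TMM scaling, and levels of different genes are compared only as TPM, which also divides by exon length. Adjusted p-values come from edgeR's quasi-likelihood test with Benjamini-Hochberg adjustment over 18994 tested genes, and a gene was called at an adjusted p under 0.05 with a log2 fold change beyond 0.5 in either direction. The libraries held 14781315 to 23408503 counts. In control mice 3 of 3 GABAergic markers were higher and 6 of 6 cortical pyramidal markers lower in BNST than in mPFC, and of 6 BNST peptide genes 4 were higher and 1 lower. The 8 striatal markers were higher as well, with a summed level of 1308 to 3251 CPM in control BNST against 213 to 252 CPM in control mPFC, and GABAergic markers are also those of striatal neurons, so these 3 do not separate BNST from striatum. The BNST libraries differed more among replicates than the mPFC libraries, where pairs of replicates gave a chi-square of 7.684 to 75.02 per degree of freedom in BNST and 3.64 to 10.3 in mPFC. The model takes a shared spread per gene for both regions, so its adjusted p-values may be too small in BNST and too large in mPFC. Fits of a region's 9 libraries alone called 1353 genes for CFA against control in BNST (2269 as reported) and 510 in mPFC (120 as reported). The choroid plexus markers set 1 BNST library apart, with a summed level of 17703 CPM in CFA replicate 2, against 182 and 220 CPM in the other CFA libraries. They summed to 2917 to 8807 CPM after formalin and to 35.8 to 742 CPM in control BNST. The cortical pyramidal markers summed to 532 CPM in BNST formalin replicate 1, against 115 and 129 CPM in the other BNST formalin libraries. In control BNST they summed to 60.8 to 196 CPM. The part of this cortical signal in the BNST formalin values was not tested. By the column names of the study's supplementary tables, all mPFC libraries ran in lane 2, while BNST control replicates 1 and 2 ran in lane 1 and BNST formalin replicate 1 in lane 3. In tissue of mixed cells, fewer cells of a type and less RNA per cell cannot be told apart.

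In control BNST, Tef had the most transcripts, 184.5 ± 19.7 TPM (SD, n = 3), followed by Nr1d1 at 99.8 ± 4.0 TPM, Nr1d2 at 95.9 ± 5.9 TPM, Dbp at 86.0 ± 18.6 TPM and Per1 at 61.7 ± 9.0 TPM. Npas2 had 38.1 ± 2.0 TPM, and Per3, Per2, Ciart and Arntl lay together between 19.8 and 22.7 TPM. The libraries of Nr1d1, Nr1d2 and Dbp overlapped, as did those of Dbp and Per1 and those of the 4 lowest genes, so their order within these runs was not beyond the spread. In control mPFC the order was Tef (204.1 ± 8.2 TPM), Nr1d1 (123.0 ± 12.8 TPM), Nr1d2 (83.5 ± 6.5 TPM), Per1 (83.3 ± 2.1 TPM), Dbp (58.6 ± 2.9 TPM), Npas2 (48.9 ± 2.4 TPM), Per3 (33.3 ± 3.0 TPM), Per2 (29.4 ± 1.5 TPM), Arntl (23.7 ± 2.2 TPM) and Ciart (21.0 ± 1.3 TPM). There the neighbours Nr1d2 and Per1, Per3 and Per2, and Arntl and Ciart overlapped. Arntl and Ciart were thus among the lowest of the 10 in both regions and Tef the highest.

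**Figure D1:**
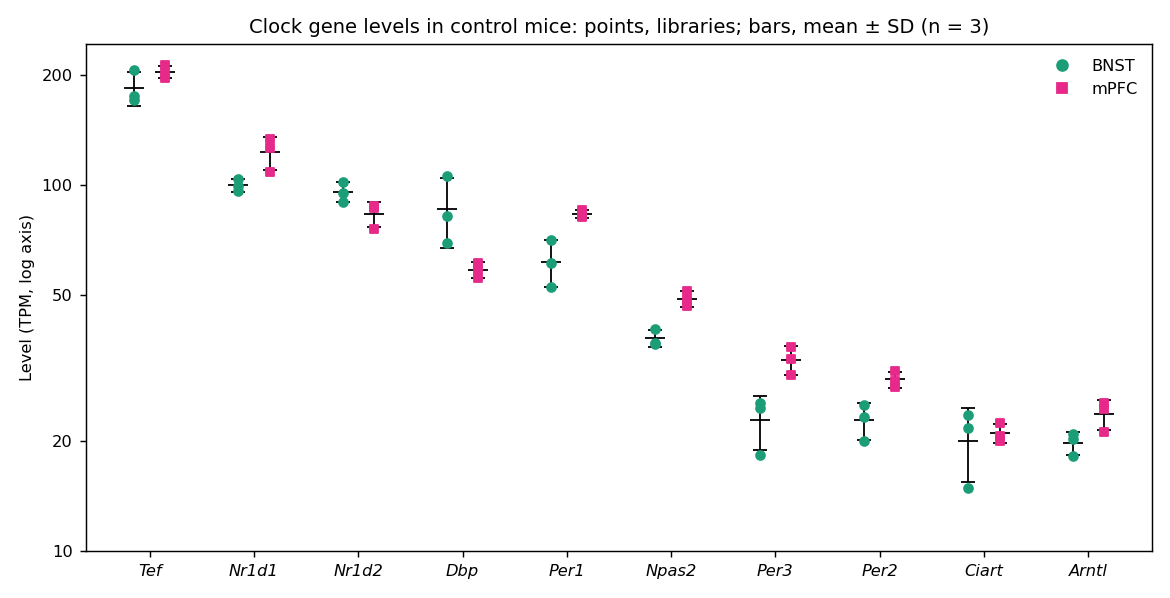
Levels of the 10 genes in control mice in TPM on a log axis, with a point for each library and bars for the mean and SD of 3 libraries, BNST left of mPFC for each gene. Tef sits highest at 184.5 TPM in BNST and 204.1 TPM in mPFC, and Arntl and Ciart lie near 20 TPM in both regions.

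In control mice, Per1 and Per3 were lower in BNST than in mPFC, and no other member passed. Over all genes tested, 26.6% were called between the regions and 12% were called lower in BNST, so 2 of 10 is not beyond the background. Per1, the period gene most known as an immediate early gene, had 73.9, 86.1 and 92.7 CPM in BNST, against 117.2, 124.4 and 118.7 CPM in mPFC. Its log2 fold change was -0.51 (SE 0.09, adjusted p = 0.00022). Per3, a less essential relative of Per1 and Per2, had 43.8, 58.9 and 56.5 CPM in BNST, against 73.8, 89.5 and 82.4 CPM in mPFC (log2 fold change -0.63, SE 0.11, adjusted p = 0.00025). The groups did not overlap for either gene. Per2 (-0.45), Npas2 (-0.43), Nr1d1 (-0.37) and Arntl (-0.33) had adjusted p-values of 0.00050 to 0.0043 below the fold minimum, and Dbp differed the other way at 0.49 (adjusted p = 0.0048). The libraries of 7 of the 10 genes did not overlap between the regions, against 48.5% of all genes tested. The median log2 fold change was -0.35 over the 10 genes and 0.04 over all genes. The regions came in part from the same mice. Among the controls only the animals con2 and con4 gave both regions, so with the animal as a block these log2 fold changes rest on those mice alone. In that fit the value was -0.40 for Per1 (adjusted p = 0.011) and -0.44 for Per3 (adjusted p = 0.028), below the fold minimum. Per2 (-0.51, adjusted p = 0.010) and Dbp (0.51, adjusted p = 0.026) were then called. Per1 was also below the fold minimum without BNST control replicate 1 (-0.43) and without mPFC control replicate 2 (-0.49), and within lane 2 (-0.37, with 1 BNST control library).

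Dbp was lower after CFA in both regions. The gene (ENSMUSG00000059824.12, chr7:45705088-45710203, plus strand, GRCm38) encodes a D-box activator whose transcript has one of the widest daily swings in mammalian tissues. In BNST, its level was 33.2, 31.4 and 33.9 CPM after CFA, against 61.2, 79.1 and 48.3 CPM in controls. In mPFC it was 24.5, 24.5 and 24.1 CPM after CFA, against 44.7, 47.4 and 42.6 CPM in controls. In each region every CFA library lay below every control library, and the CFA libraries were closer to one another than the control libraries were. The log2 fold change was -0.94 in BNST (SE 0.13, adjusted p = 7.6e-05) and -0.88 in mPFC (SE 0.13, adjusted p = 0.0031). The difference of the changes, BNST minus mPFC, was -0.06 (95% interval -0.45 to 0.34, adjusted p = 0.90). Formalin gave 55.0, 57.7 and 56.5 CPM in BNST and 47.7, 43.4 and 56.1 CPM in mPFC. These values overlapped the controls of each region, and Dbp was higher after formalin than after CFA by 0.78 in BNST (SE 0.13, adjusted p = 0.0010) and by 1.01 in mPFC (SE 0.13, adjusted p = 0.00093). Dbp shares 539 exonic bases with Sphk2 on the other strand, and the strand setting of the counting is not given in the sources used here, so reads there cannot be assigned. The 4 Dbp calls of CFA held in every alternative run, where the adjusted p of the BNST change against controls reached 0.029. The log2 fold change was -0.57 for BNST CFA against the 1 control library of lane 2, a fit in which that library is assumed to vary like the other groups.

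Per2 had log2 fold changes of opposite sign in the regions after CFA. The gene (ENSMUSG00000055866.9, chr1:91415982-91459324, minus strand) encodes a repressor of the loop without which mice lose a stable rhythm. In mPFC, Per2 had 76.1, 75.5 and 66.9 CPM after CFA, against 46.2, 42.4 and 43.7 CPM in controls. In BNST it had 23.3, 25.4 and 24.0 CPM after CFA, against 33.9, 29.1 and 34.0 CPM in controls. The groups overlapped in neither region, with CFA above controls in mPFC and below them in BNST. Per2 rose in mPFC (log2 fold change 0.72, SE 0.09, adjusted p = 0.00070), and its BNST value of -0.42 (SE 0.09, adjusted p = 0.0031) stayed under the fold minimum. Over the alternatives run, the adjusted p of that BNST value reached 0.072. The difference of the changes was -1.14 (SE 0.12, adjusted p = 5.2e-05), the largest of the 10 genes. After formalin, Per2 had 31.9, 32.5 and 30.4 CPM in BNST and 44.1, 36.8 and 45.6 CPM in mPFC, overlapping the controls of each region. The formalin level was lower than that of CFA in mPFC (-0.79, SE 0.09, adjusted p = 0.00029), and in BNST the difference was 0.38 (adjusted p = 0.0087), under the fold minimum. The mPFC calls and the region difference of Per2 held in every alternative run. Within lane 2, with 1 BNST control library, the BNST value of Per2 for CFA against control was -0.502, just beyond the fold minimum. In CFA mPFC, Per2 reached 46.9 ± 3.1 TPM and lay above Dbp at 30.7 ± 0.3 TPM, the reverse of their order in control mPFC.

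**Figure D2:**
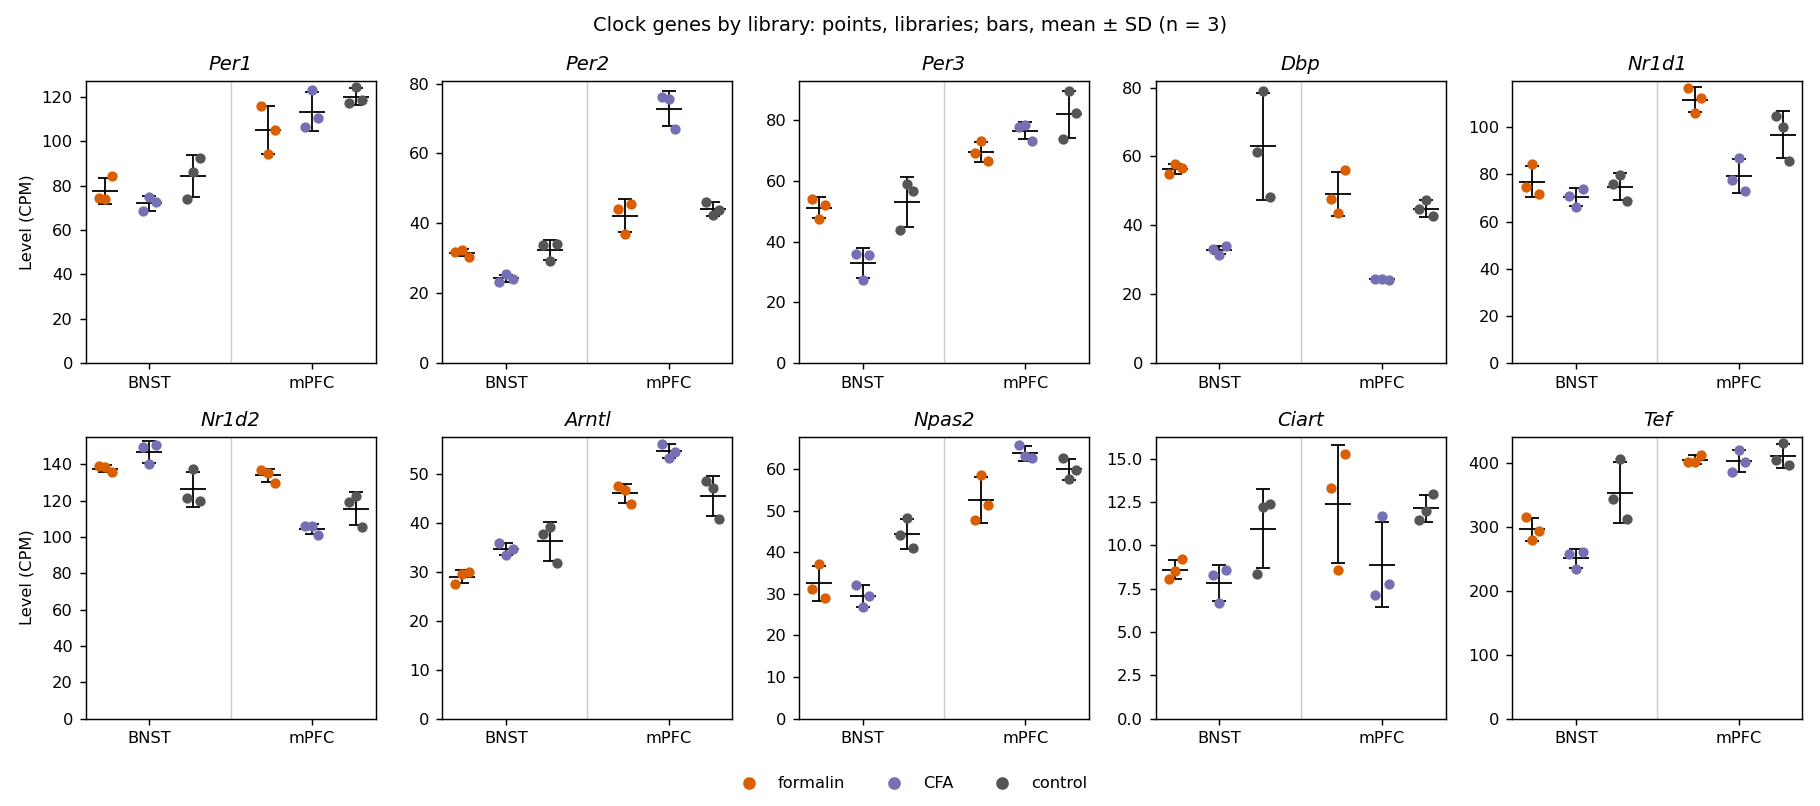
CPM of each gene in every library, formalin, CFA and control from left to right within BNST and then within mPFC, with bars for the mean and SD of 3 libraries and axes that start at 0. The Dbp points of CFA lie lowest in both regions, at 31.4 to 33.9 CPM in BNST and 24.1 to 24.5 CPM in mPFC, and the Per2 points of CFA lie highest in mPFC, at 66.9 to 76.1 CPM, and lowest in BNST.

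The other period genes showed no like change in the mPFC. Per3 (ENSMUSG00000028957.12, chr4:151003652-151044665, minus strand), whose start window is the one with a pair of D-boxes, had 35.8, 27.2 and 35.7 CPM after CFA in BNST, against 43.8, 58.9 and 56.5 CPM in controls. It fell there by 0.69 on the log2 scale (SE 0.11, adjusted p = 0.00046), and the groups did not overlap. In mPFC it had 77.8, 78.5 and 73.3 CPM after CFA, against 73.8, 89.5 and 82.4 CPM in controls, which overlap (log2 fold change -0.10, adjusted p = 0.77). The difference of the changes was -0.59 (SE 0.16, adjusted p = 0.042), a call that was lost in 12 of 18 fits without 1 library each, with adjusted p-values up to 0.11. Formalin gave 54.1, 47.4 and 52.0 CPM of Per3 in BNST, above all CFA libraries (0.64, SE 0.11, adjusted p = 0.0020), and 69.0, 73.1 and 66.6 CPM in mPFC. The BNST call of Per3 against controls had an adjusted p of 0.0502 when the 6 libraries compared were fitted alone. Per1 (ENSMUSG00000020893.17, chr11:69095217-69109960, plus strand) had 68.4, 74.9 and 72.6 CPM after CFA in BNST, against 73.9, 86.1 and 92.7 CPM in controls, an overlap of the groups (-0.23, adjusted p = 0.082). In mPFC it had 106.5, 123.2 and 110.4 CPM after CFA, against 117.2, 124.4 and 118.7 CPM in controls (-0.08, 95% interval -0.28 to 0.11, adjusted p = 0.76). Per1 after formalin was 74.6, 74.0 and 84.2 CPM in BNST and 115.9, 94.3 and 105.3 CPM in mPFC. Of the 3 period genes, Per1 was thus called in none of the 6 treatment comparisons within a region, and Per2 and Per3 in at least 1.

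Of the activators, Npas2 fell after CFA in BNST and Arntl did not pass. Npas2 (ENSMUSG00000026077.15, chr1:39193731-39363236, plus strand), which can stand in for CLOCK and is enriched in the forebrain, had 32.1, 27.0 and 29.4 CPM after CFA in BNST, against 44.2, 48.2 and 41.0 CPM in controls. It fell by 0.59 on the log2 scale (SE 0.10, adjusted p = 0.00047), without overlap. In mPFC it had 65.9, 63.1 and 62.6 CPM after CFA, against 62.7, 57.6 and 59.7 CPM in controls (0.09, adjusted p = 0.75). The difference of the changes was -0.68 (SE 0.14, adjusted p = 0.0075). After formalin, BNST Npas2 was 31.3, 37.3 and 29.0 CPM, also below every control library, with a log2 fold change of -0.45 (SE 0.10) and an adjusted p of 0.051. Without BNST control replicate 3 that value was -0.51 (adjusted p = 0.021) and counted as a call. Within lane 2, with the same 1 control library, the CFA value of Npas2 in BNST was -0.49 (adjusted p = 0.018), just under the fold minimum. Arntl (ENSMUSG00000055116.8, chr7:113207465-113314126, plus strand), the activator that the loop cannot run without, had 27.5, 29.6 and 30.0 CPM after formalin in BNST, against 37.8, 39.2 and 31.8 CPM in controls, lower without overlap (-0.32, adjusted p = 0.087). It had 35.9, 33.6 and 34.7 CPM after CFA in BNST, an overlap with controls, and BNST formalin was lower than BNST CFA by a difference of -0.26 (adjusted p = 0.048), under the fold minimum. In mPFC, Arntl had 56.3, 53.4 and 54.5 CPM after CFA, against 48.6, 47.3 and 40.8 CPM in controls, higher without overlap (0.26, adjusted p = 0.15). After formalin in mPFC it had 47.6, 46.8 and 43.9 CPM.

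Neither of the nuclear receptor genes that repress Arntl was called. Nr1d1 (ENSMUSG00000020889.11, chr11:98767932-98775333, minus strand, 263 exonic bases shared with Thra on the other strand) had 116.6, 106.1 and 112.5 CPM after formalin in mPFC, against 77.8, 87.2 and 73.0 CPM after CFA and 104.6, 100.2 and 85.8 CPM in controls. All formalin libraries were above all CFA libraries, by 0.495 on the log2 scale (SE 0.09, adjusted p = 0.0094), just under the fold minimum, and the call was made in 5 of 18 fits without 1 library each and by DESeq2. In BNST it had 74.7, 84.3 and 71.9 CPM after formalin, 70.9, 66.2 and 73.7 CPM after CFA and 76.0, 79.8 and 68.7 CPM in controls, all overlapping. Nr1d2 (ENSMUSG00000021775.11, chr14:18204054-18239127, minus strand) showed a like difference in mPFC, with 136.6, 135.4 and 129.4 CPM after formalin, against 105.9, 106.2 and 101.1 CPM after CFA (0.36, SE 0.07, adjusted p = 0.014). Its mPFC controls had 119.3, 122.3 and 105.2 CPM, between the pain models apart from the lowest library. In BNST the direction after CFA was the other one, with 149.8, 140.1 and 150.6 CPM after CFA, against 121.2, 137.4 and 120.0 CPM in controls (0.22, SE 0.07, adjusted p = 0.030). BNST formalin gave 139.1, 138.3 and 135.5 CPM. The difference of the CFA changes of Nr1d2 between the regions was 0.37 (SE 0.10, adjusted p = 0.038), also under the fold minimum.

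Tef and Ciart completed the set. Tef (ENSMUSG00000022389.15, chr15:81802421-81826863, plus strand), the D-box activator related to Dbp, had 257.1, 234.3 and 260.8 CPM after CFA in BNST, against 343.7, 405.9 and 311.9 CPM in controls, without overlap. Its log2 fold change of -0.497 (SE 0.09, adjusted p = 0.00059) lay just under the fold minimum and passed it in 6 of 18 fits without 1 library each. BNST formalin gave 315.8, 279.8 and 293.7 CPM of Tef, above every CFA library (0.24, adjusted p = 0.064). In mPFC it had 401.1, 402.3 and 413.3 CPM after formalin, 386.2, 420.4 and 402.5 CPM after CFA and 404.8, 431.7 and 396.5 CPM in controls, all overlapping. The difference of the CFA changes was -0.47 (SE 0.12, adjusted p = 0.032), under the fold minimum. Ciart (ENSMUSG00000038550.10, chr3:95878503-95882251, minus strand), the repressor with 3 E-boxes in its window, had 8.3, 6.7 and 8.6 CPM after CFA in BNST, against 8.3, 12.2 and 12.4 CPM in controls (-0.49, SE 0.21, adjusted p = 0.10). Its SE was the widest of the 10 genes, and without BNST control replicate 1, the lowest control, the value was -0.65 (adjusted p = 0.043). In mPFC, Ciart had 13.3, 8.6 and 15.3 CPM after formalin, 7.2, 11.7 and 7.8 CPM after CFA and between 11.5 and 13.0 CPM in controls. BNST formalin gave 8.1, 8.5 and 9.2 CPM.

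Counted over the 10 genes, CFA against control called 3 lower in BNST (Dbp, Per3, Npas2), while 11.9% of all genes tested were called there and 7.06% were called lower. Since the 10 genes were chosen with earlier results of these data known, no count or median set beside all genes is independent support. Without BNST control replicate 1 the BNST count was 5, with Tef and Ciart added, while 2444 of the 18994 genes were called. In mPFC it called 1 higher (Per2) and 1 lower (Dbp), while 0.632% of all genes tested were called, 0.337% higher and 0.295% lower. Formalin against control called 0 of 10 in BNST, where 0.3% of all genes were called, and 0 of 10 in mPFC, where 0.269% were called. DESeq2 also called 0 of 10 in each region, and 403 genes (2.12%) over all in BNST and 133 (0.7%) in mPFC. At an unadjusted p under 0.05 there were 3 members for formalin in BNST (Arntl, Npas2 and Tef) and 2 in mPFC (Nr1d1 and Nr1d2). Of all 18994 genes tested, 3726 had such a p in BNST and 2677 in mPFC, so these member counts were not far from the background. Formalin against CFA called 2 in BNST, both higher (6.87% of all genes called, 3.91% higher), and 2 in mPFC, Dbp higher and Per2 lower (0.932% called). The region difference of the CFA changes called 3 of 10 (Per2, Npas2, Per3) against 4.17% of all genes, and that of the formalin changes 0 of 10 against 0.158%, with Arntl the 1 member at an unadjusted p under 0.05. For the formalin changes, 2779 of the 18994 genes had an unadjusted p under 0.05 in the same test. The region difference of formalin against CFA called Per2 (1.17, SE 0.12, adjusted p = 0.00049) and Per3 (0.77, SE 0.16, adjusted p = 0.011), again against 4.17%. Both comparisons with formalin and with CFA share the control libraries of a region.

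**Figure D3:**
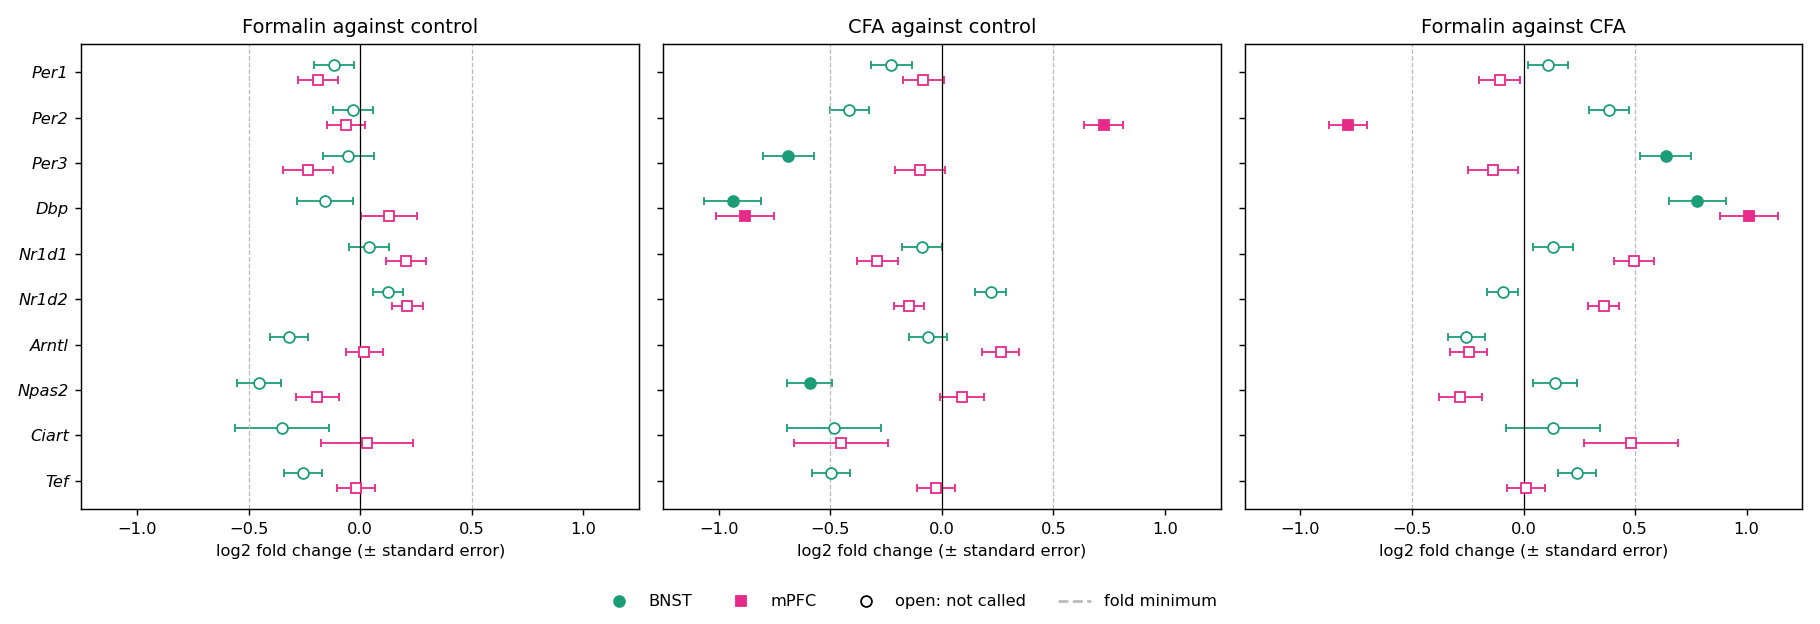
Log2 fold changes with their standard errors of the 10 genes for formalin against control, CFA against control and formalin against CFA, in BNST (circles) and mPFC (squares), with filled symbols for called genes and dashed lines at the fold minimum of 0.5. Every symbol of formalin against control is open, Dbp is filled on the left for CFA in both regions at -0.94 and -0.88, and Per2 is filled on the right in mPFC at 0.72.

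The median log2 fold change of the 10 genes for CFA against control was -0.45 in BNST, where that of all genes tested was 0.01, and -0.09 in mPFC, where it was 0. For formalin it was -0.14 in BNST, against -0.04 over all genes, and -0.0008 in mPFC, against -0.0036 over all genes. In BNST, 6 of the 10 genes did not overlap between CFA and control libraries, 5 lower and 1 higher, while 31.5% of all genes tested did not overlap. In mPFC this was 3 of 10 (Per2 and Arntl higher, Dbp lower) against 25.6%. Between formalin and control libraries there was no overlap for 2 of 10 in BNST (22.4% of all genes) and 4 of 10 in mPFC (26.1%), shares not far from those of all genes.

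Markers of neighbouring regions and of the BNST itself moved with CFA in the BNST libraries. All 8 striatal markers were lower after CFA, with a summed level of 227 to 589 CPM after CFA against 1308 to 3251 CPM in controls, while formalin gave 1135 to 1618 CPM. Of 5 habenula markers 4 were higher, with 64.5 to 124 CPM after CFA against 14.5 to 36.5 CPM in controls. The same 5 summed to 93.9 to 98.4 CPM in control mPFC, so this sum is not particular to habenula tissue. Thalamic markers, of which 1 of 4 was called, summed to 468 to 809 CPM after CFA against 226 to 536 CPM in controls. Of the hypothalamic markers, 1 of 4 tested was called higher, and the list of 6 summed to 19.1 to 84.0 CPM after CFA against 4.7 to 31.0 CPM in controls. Of 6 BNST peptide genes, 2 were lower (Penk and Tac1, which striatal neurons also express) and 1 was higher (Crh), with sums of 241 to 317 CPM after CFA against 507 to 758 CPM in controls, while formalin gave 402 to 485 CPM. No defining marker of these 5 lists was at 0 in all BNST libraries of a group. Their part in the BNST results of Dbp, Per3, Npas2, Per2 and Tef was not tested. In the mPFC the striatal sums were 252 to 282 CPM after CFA against 213 to 252 CPM in controls, with none of the 8 called. Of 7 oligodendrocyte markers, 3 were lower after CFA in mPFC. The 7 summed to 1531 to 2188 CPM after CFA, against 2399 to 3763 CPM in controls. Formalin gave 1704 to 2620 CPM in mPFC, with none of the 7 called. The part of these markers in the Per2 and Dbp results was not tested. Leaving out BNST CFA replicate 2, the library with the high choroid plexus sum, left the BNST changes at -0.91 for Dbp, -0.57 for Per3 and -0.53 for Npas2, all called (adjusted p = 0.00044, 0.0016 and 0.0022), and gave a region difference of -1.17 for Per2 (adjusted p = 5.5e-05), -0.62 for Npas2 (adjusted p = 0.014) and -0.47 for Per3 (adjusted p = 0.071).

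Among 18 other clock genes, few passed. These were 9 partners of the loop (Clock, Cry1, Cry2, Rora, Rorb, Bhlhe40, Bhlhe41, Nfil3, Hlf), 7 kinases and turnover factors (Csnk1d, Csnk1e, Fbxl21, Btrc, Fbxw11, Usp2, Timeless) and the outputs Wee1 and Noct. After CFA in BNST, 2 of the 9 partners were higher and none of the 7 or of the 2 was called, and after CFA in mPFC and after formalin in either region none of the 18 was called. Over all genes tested the shares called were 11.9% for CFA in BNST, 0.632% for CFA in mPFC, and 0.3% and 0.269% for formalin in BNST and mPFC. Nfil3, the D-box repressor that opposes DBP and TEF, had 9.2, 13.9 and 9.7 CPM after CFA in BNST, against 7.7, 7.0 and 7.8 CPM in controls (0.54, SE 0.16, adjusted p = 0.023). In mPFC it had 16.7, 12.6 and 12.9 CPM after CFA, against 9.1, 9.5 and 9.6 CPM in controls (0.58, adjusted p = 0.099). In both regions every CFA library lay above every control library, the opposite direction to Dbp in the same libraries. Formalin gave 8.3, 6.6 and 7.1 CPM in BNST and 8.4, 9.9 and 7.7 CPM in mPFC, lower than CFA in both (-0.58, adjusted p = 0.024, and -0.70, adjusted p = 0.034). The Nfil3 calls were weak, since the BNST value against control was 0.33 (adjusted p = 0.15) without CFA replicate 2, and the call of formalin against CFA was lost in 3 of 18 fits without 1 library in BNST and in 6 of 18 in mPFC. In mPFC the CFA value was called by DESeq2 (0.58, adjusted p = 0.036). Rora, an activator at the ROR elements where NR1D1 represses, had 266.1, 160.1 and 278.1 CPM after CFA in BNST, against 116.2, 168.6 and 52.8 CPM in controls. These groups overlapped although the gene passed (1.06, SE 0.31, adjusted p = 0.025), and the call was lost without control replicate 1, CFA replicate 1 or CFA replicate 3 in turn (adjusted p = 0.053 to 0.073). In the same libraries the summed thalamic markers were 793, 468 and 809 CPM after CFA, against 383, 536 and 226 CPM in controls, and their part in the Rora result was not tested. Rora after formalin was 102.1, 109.2 and 121.7 CPM in BNST, lower than CFA (-1.08, adjusted p = 0.033), a call lost in 5 of 18 fits without 1 library each, and in mPFC its 3 groups overlapped at 62.7 to 91.9 CPM.

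**Figure D4:**
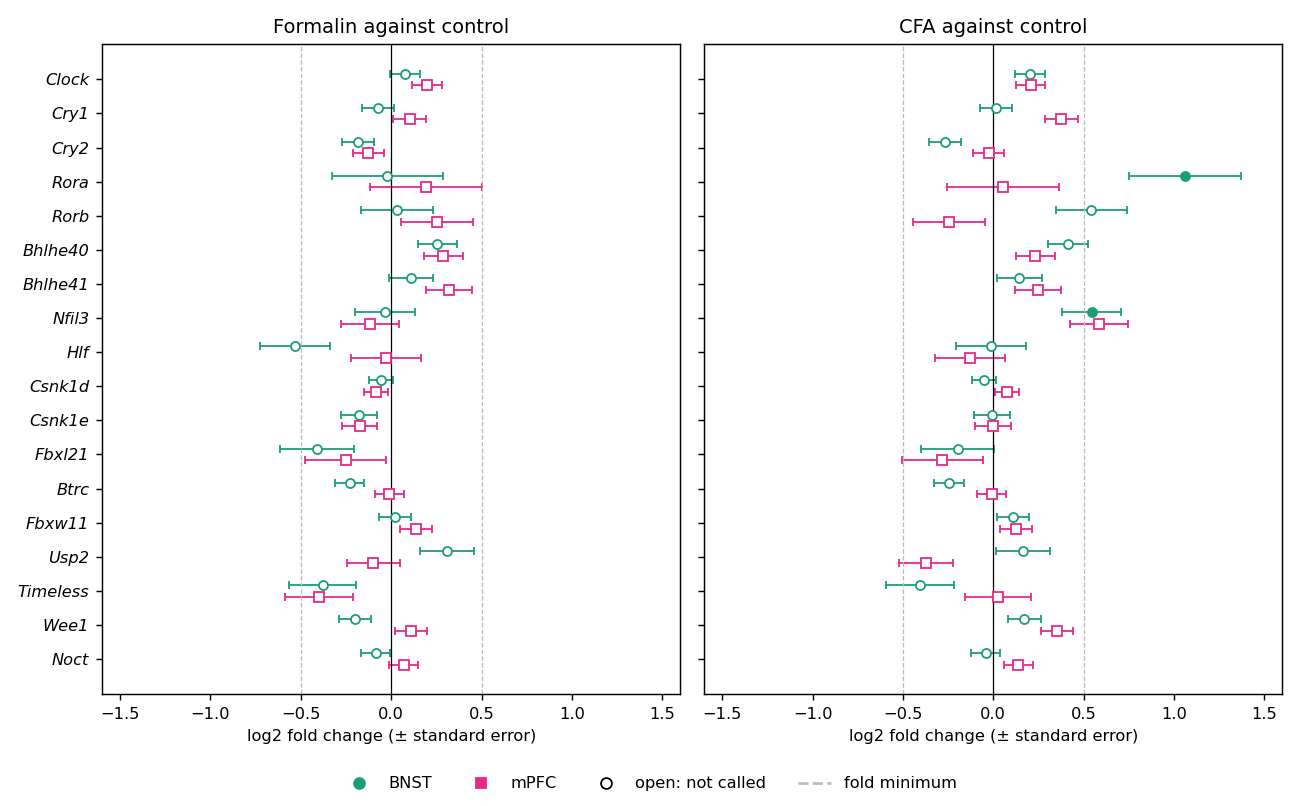
Log2 fold changes with standard errors of 18 further clock genes for formalin against control and CFA against control, in BNST (circles) and mPFC (squares), with filled symbols for called genes. The only filled symbols are Rora at 1.06 and Nfil3 at 0.54, both for CFA in BNST.

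Because Per1 and Per2 are known to respond to glucocorticoids, 15 glucocorticoid-responsive genes were read in the same libraries, of which 14 had enough counts. After CFA, 11 of 14 were higher in BNST and 6 of 14 in mPFC, and none passed after formalin in either region, where the shares of all genes called were 11.9% and 0.632% after CFA and 0.3% and 0.269% after formalin, BNST before mPFC. Fkbp5, a gene that glucocorticoids induce and whose protein dampens their receptor, had 46.7, 52.6 and 47.2 CPM after CFA in BNST, against 31.3, 29.0 and 32.9 CPM in controls (0.65, SE 0.12, adjusted p = 0.0012). In mPFC it had 43.7, 53.6 and 42.6 CPM after CFA, against 18.5, 18.3 and 20.1 CPM in controls (1.30, SE 0.13, adjusted p = 0.00015). The summed level of the list was 952 to 1403 CPM after CFA against 528 to 625 CPM in control BNST, and 838 to 914 CPM after CFA against 585 to 597 CPM in control mPFC. The highest BNST sum was that of CFA replicate 2, the library with the high choroid plexus sum. Per1 itself passed in neither region. Per2 was called higher after CFA in mPFC (0.72) and had a value of -0.42 in BNST, under the fold minimum. The part of glucocorticoids in these results was not tested.

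The genes whose pattern was most like that of a member were found over the 18 libraries, as the Pearson correlation of log2 CPM after the mean of each region was removed, among all genes tested. They were Zfp46 (r = 0.93), Cd180 and Amz1 for Dbp, Macf1 (0.90), Zmynd8 and Lyst for Per2, Gm26628 (0.94), Pcsk7 and Kdm6bos for Per3, and Camkv (0.98), Anks1b and Kcnk2 for Tef. For Per1 they were Gm11400 (0.85), Junb and Npas4, for Npas2 Ptpn5 (0.91), Gm1043 and Exd2, and for Arntl Mgea5 (0.89), Snx17 and Recql. For Nr1d1 they were Pcyox1 (0.85), Nudcd3 and Pcdhb20, for Nr1d2 Cav2 (0.93) and Ttll7, and for Ciart 2410002F23Rik (0.87), Erich3 and Cntnap5b. Among the 10 genes themselves, the most alike were Per3 and Tef (0.77), Dbp and Nr1d1 (0.76) and Nr1d1 and Nr1d2 (0.72), and the most opposed were Per2 and Nr1d2 (-0.77). These values describe the same 18 libraries, which share treatment, dissection and depth, and are not a test.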

How the data were processed

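RNA of the BNST and prelimbic mPFC was read in 18 libraries. Paired-end reads of 150 bp were trimmed (Trimmomatic 0.39), aligned to GRCm38 (HISAT2 2.2.1) and summed over genes (featureCounts 2.0.1) by the authors. The deposited values are raw counts, whole numbers without normalization, and no column of other samples was found. The annotation release, strand setting and handling of reads with several hits are not given in the sources used here. GENCODE M21 gave symbols, loci and exon lengths, and 260 identifiers had no symbol there.

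The test was run with edgeR 4.0.16 under R 4.3.3. The filter filterByExpr (minimum count 10, minimum total 15) kept 18994 genes, with 99.88% of the counts. A single quasi-likelihood model with robust dispersions and TMM scaling held 6 groups, with 12 residual degrees of freedom. The thresholds on the adjusted p (0.05) and the log2 fold change (0.5) follow the study. Standard errors are the log2 fold change divided by the root of the F statistic. Changes were compared between regions by interaction terms. Replicates come from separately numbered animals. The steps were tested on simulated data, with changes set in the mPFC CFA group for genes drawn from all those tested. Of 100 genes given a log2 change of 0.75 in size, 47% were called against control, and of 100 given a change of 1, 67%. Among the unchanged genes there were 4 false calls. A gene that was not called may therefore still have changed.

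All 10 members were named, other clock genes where they passed in a treatment comparison within a region, and the 3 genes most correlated with each member. The results of some genes that these rules take are not reported here. Members and lists were chosen with earlier results of these data known. Lanes and animal numbers come from the column names of the supplementary tables, joined to the libraries by equal counts. Alternatives were DESeq2 1.42.0, RLE scaling, no low-count filter, fits of 9 or 6 libraries, lane 2 alone, replicate or animal blocks, no fold minimum and leaving out each library. Libraries of the same animal in both regions make up 8 pairs, and the correlation of their deviations ran from -0.03 to 0.17.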

Additional observations from a re-analysis of the deposited data

Results flagged for a closer look

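The changes of 5 clock genes differed between BNST and mPFC by a test of the difference itself (the interaction term of edgeR's quasi-likelihood model, adjusted over all genes tested), and 3 of them (Per2, Npas2 and Per3) also passed the fold minimum. Over all 18994 genes, 949 (5%) passed the same adjusted p without a fold minimum for CFA against control and 1148 (6.04%) for formalin against CFA. For CFA against control, BNST minus mPFC, the difference of the log2 fold changes was -1.14 for Per2 (adjusted p = 5.2e-05), -0.68 for Npas2 (adjusted p = 0.0075) and -0.59 for Per3 (adjusted p = 0.042). The call of Per3 was lost in 12 of 18 fits without 1 library each, with adjusted p-values up to 0.11, and with the replicate number as a block (adjusted p = 0.058). With the animal as a block, Per2, Npas2 and Per3 were called, among 456 of the 18994 genes. The difference was -0.47 for Tef (adjusted p = 0.032) and 0.37 for Nr1d2 (adjusted p = 0.038), both under the fold minimum of 0.5. For formalin against CFA, BNST minus mPFC, it was 1.17 for Per2 (adjusted p = 0.00049) and 0.77 for Per3 (adjusted p = 0.011), and -0.45 for Nr1d2 (adjusted p = 0.013), again under the fold minimum. Both sets of differences share the CFA libraries. For CFA against control in the same test, 7 of 8 striatal markers were called lower (median difference -2.82) and 2 of 5 habenula markers higher, against 4.17% of all genes called. The part of these markers in the differences of the clock genes was not tested.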

How the results depend on the processing

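No log2 fold change of the 10 genes reversed a call under the alternatives run. Of 2560 values, 2497 kept their side of the threshold, 20 lost a call and 43 gained one. Of those 2497, 49 changed sign, none of them called and none with a reported log2 fold change beyond 0.29 in size. The counts of members called moved by more than 1.5 times without the minimum fold change, to 6 for CFA against control in BNST, 4 for formalin against CFA in BNST and 4 in mPFC, 5 for the region difference of CFA changes, and 7 for the regions in controls. Of all genes tested, 22.7%, 14.9%, 1.76%, 5% and 39.7% passed without that minimum in the same comparisons, in this order. Leaving out each library in turn gave 0 to 1 called for formalin and 3 to 5 for CFA against control in BNST, 2 to 2 for formalin against CFA in BNST, 0 to 0 for formalin and 2 to 2 for CFA against control in mPFC, 2 to 3 for formalin against CFA in mPFC, 0 to 0, 2 to 4 and 2 to 3 for the region differences of formalin, of CFA and of formalin against CFA, and 2 to 3 for the regions in controls. The cause was not tested.

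Replicate numbers were not taken as pairs across treatments, since deviations of same-numbered libraries correlated at -0.19 to 0.31, above 0.1 in 4 of 18 pairs. With the replicate number as a block, the region difference of the CFA changes called 2 members, as Per3 was then at -0.59 with an adjusted p of 0.058, and no other call of a member changed. With the animal as a block, that region difference called Per2, Per3 and Npas2. Over all genes tested, counts of calls under the alternatives other than leaving out a library lay between 1 and 403 for formalin in BNST (57 as reported), 753 and 4310 for CFA in BNST (2269), 30 and 259 for formalin in mPFC (51) and 115 and 510 for CFA in mPFC (120). For formalin against CFA they were 471 to 2835 in BNST (1305) and 165 to 602 in mPFC (177). For the region differences they were 5 to 396 for formalin (30), 456 to 1670 for CFA (792) and 525 to 1148 for formalin against CFA (792), and for the regions in controls 3835 to 7549 (5059). Leaving out each library in turn gave, over all genes, 2 to 898 for formalin in BNST (898 without BNST CFA replicate 2), 1640 to 2743 for CFA in BNST, 0 to 92 for formalin in mPFC (0 without mPFC formalin replicate 3), 30 to 192 for CFA in mPFC (30 without mPFC CFA replicate 1), 807 to 2413 and 50 to 264 for formalin against CFA in BNST and in mPFC, 0 to 528, 500 to 893 and 440 to 1510 for the region differences of formalin, of CFA and of formalin against CFA, and 4474 to 5312 for the regions in controls. The 10 genes had at least 121 counts in each library.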
